A study of Mus musculus with 21 samples.

Results

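The cells described are mouse germinal centre B cells called in S phase, the phase in which a cell copies its DNA. They were the cells of the non-PC well whose deposited phase call was S and whose deposited state was light zone (LZ) or dark zone (DZ), 1628 of the 6619 cells in the deposited table. Of these, 1008 were LZ cells and 620 were DZ cells. All came from draining lymph nodes of 6 mice immunised under the skin with 100 µg of NP-KLH, a hapten coupled to a carrier protein, in adjuvant. Every mouse was also gavaged once with 5 mg of tamoxifen, which switches on a Cre-ERT2 recombinase and so labels cells with the fluorescent protein eYFP. The strain and the gene that drives the Cre are not named in the labels. Nodes were taken on day 10 from 2 mice, on day 16 from 2 and on day 22 from 2. IgD-negative eYFP+ cells were sorted into a plasma cell (PC) and a non-PC fraction, the mice were marked with antibody barcodes, and each fraction was pooled in 1 droplet well. Both zones therefore shared the mouse, the labelling, the sort and the well, and the groups compared were LZ and DZ cells of the same 6 mice.

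A germinal centre is the site in a lymph node where activated B cells mutate their antibody genes and are selected for better binding. In the light zone, B cells take up antigen from follicular dendritic cells, show its peptides on MHC class II, and receive CD40 and cytokine signals from T follicular helper cells. In the dark zone they divide and mutate their antibody genes, and they move between the zones under the chemokine receptors CXCR4 and CXCR5. Selected cells are known to enter S phase while still in the light zone and then to travel to the dark zone. Cells called S in both zones can therefore be set side by side.

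The zone of a cell was not seen under a microscope. It was a deposited name that nearly followed a cut at 0.5 in a per-cell expression score, the deposited continuous zone score. Of the S-phase cells, 986 LZ cells lay below 0.5, 22 LZ cells lay at or above it (highest 0.509), and all 620 DZ cells lay at or above it (lowest 0.50). How the names were made is not given in the sources used here. Within 0.05 of the cut lay 295 LZ cells (29.3%) and 201 DZ cells (32.4%). On this score LZ and DZ cells therefore met without a gap between them. The genes behind the score are not given in the sources used here. A p-value below measures how evenly the 6 mice showed a difference between cells whose names follow an expression score. The zone markers themselves are given as a description, with no p.

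**Figure D1:**
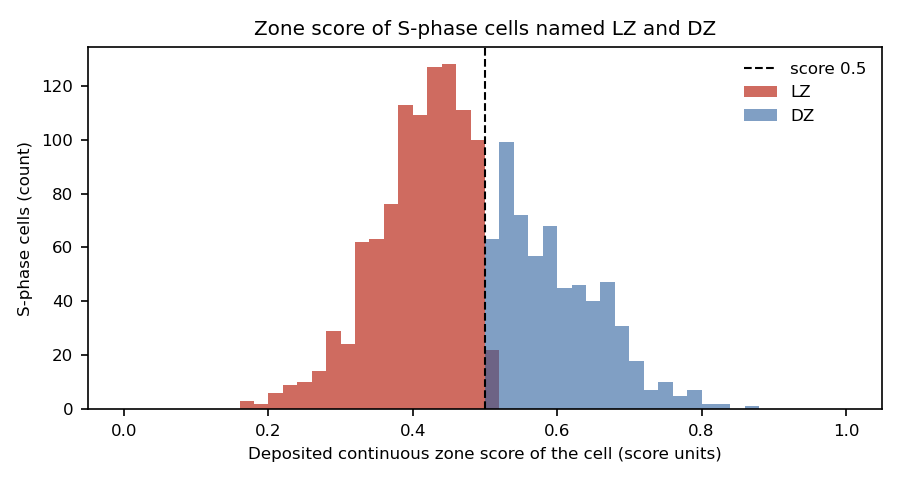
Number of S-phase cells (y axis) in each bin of the deposited continuous zone score (x axis, score units), LZ cells in red and DZ cells in blue, with a dashed line at 0.5. Cells of both zones pile up against the line, with 295 LZ and 201 DZ cells within 0.05 of it.

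The markers of the light zone followed the names. Counts of each gene were summed over the S-phase cells of a zone in a mouse, which gave 6 LZ and 6 DZ sums. CPM is the gene's count divided by the counts of all genes tested in that sum, adjusted by edgeR's TMM factor and scaled up to a common total. Cd83, a surface protein of activated B cells, had a lowest, median and highest level over the 6 mice of 357, 429.8 and 459 CPM in LZ against 99.2, 125 and 155 CPM in DZ. No DZ sum reached the lowest LZ sum, and the log2 difference, LZ minus DZ, was 1.72 ± 0.08 (SE, as for every log2 difference here). Cd40, the receptor for the helper T cell signal, had 86.4, 93.3 and 112 CPM in LZ against 26.1, 33.4 and 42.0 CPM in DZ, again without overlap. Egr1, an early gene of antigen receptor signalling, had 49.5, 71.7 and 104 CPM in LZ against 18.8, 31.3 and 42.5 CPM in DZ. Of the 13 listed light zone markers 9 were frequent enough to be tested, all 9 were higher in LZ on average, and their median log2 difference was 1.27.

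The dark zone markers were lower in LZ by smaller amounts. Cxcr4, the dark zone homing receptor, had 11.7, 13.0 and 20.5 CPM in LZ against 24.2, 29.4 and 31.8 CPM in DZ and a log2 difference of -1.05 ± 0.14. Every LZ sum of Cxcr4 lay below every DZ sum. The 6 dark zone markers had a median log2 difference of -0.44.

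The phase call also matched its genes. All 10 S-phase markers, among them Pcna (the sliding clamp of the replication fork), the 6 subunits of the MCM helicase, Tyms, Rrm2 and Cdc6, were higher in S than in G1 cells of the same zone in 6 of 6 mice in both zones, 3.0 to 11.8 times on average. How the phase was called is not given in the sources used here, so these genes may have made the call.

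Per mouse the sums held 98 to 236 LZ cells and 58 to 173 DZ cells, with 1079589 to 2701331 UMIs (unique molecular identifiers, each counting 1 captured RNA molecule) in LZ and 722276 to 2135106 in DZ. LZ cells were smaller libraries: the median per cell averaged 9993 ± 683 UMIs in LZ and 11564 ± 775 in DZ (SD over 6 mice), lower in LZ in 6 of 6 mice (exact sign-change permutation test over mice, 2-sided p = 0.03125, the smallest that 6 mice can give). Genes per cell averaged 2739 ± 113 in LZ and 2933 ± 89.0 in DZ (exact p = 0.03125). After every cell was thinned to 6346 UMIs, which left 891 LZ and 574 DZ cells and dropped 117 and 46 shallower ones, the medians were 2096 ± 16.5 genes in LZ and 2089 ± 28.2 in DZ (exact p = 0.3125). None of the members' barcodes also occurred in the PC well.

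A larger share of cells named LZ than of cells named DZ was called S. The non-PC well held 6183 cells, of which 3116 were named LZ and 2347 DZ. Cells with another deposited state, LZtoDZ among them, were in neither group. The share was 32.5 ± 2.43% of LZ cells and 26.2 ± 1.85% of DZ cells (SD, n = 6), higher in LZ in 6 of 6 mice (exact p = 0.03125, also after Benjamini-Hochberg adjustment over 4 shares). G2M was the other way round, at 13.6 ± 3.44% of LZ and 36.7 ± 3.80% of DZ cells. G1 held 53.9 ± 5.43% of LZ and 37.2 ± 4.64% of DZ cells. Among cycling cells alone, S made up 70.9 ± 4.07% in LZ and 41.7 ± 2.61% in DZ. In every mouse, then, the cycling LZ cells lay mostly in S and the cycling DZ cells mostly in G2M.

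Across all genes, 1172 of the 7461 tested (15.7%) passed an adjusted p of 0.05 in edgeR's quasi-likelihood test with the mouse as a block: 565 (7.57%) were higher in LZ and 607 (8.14%) were higher in DZ. The 6 LZ sums did not overlap the 6 DZ sums for 491 genes (6.58%), 247 of them (3.31%) higher in LZ and 244 (3.27%) higher in DZ. The median log2 difference of all genes tested was 0.00. Counts of called genes in the lists below are to be set beside the 7.57% and 8.14% of all genes. DESeq2's Wald test called 590 genes, and 689 passed after cells were thinned to equal UMIs.

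**Figure D2:**
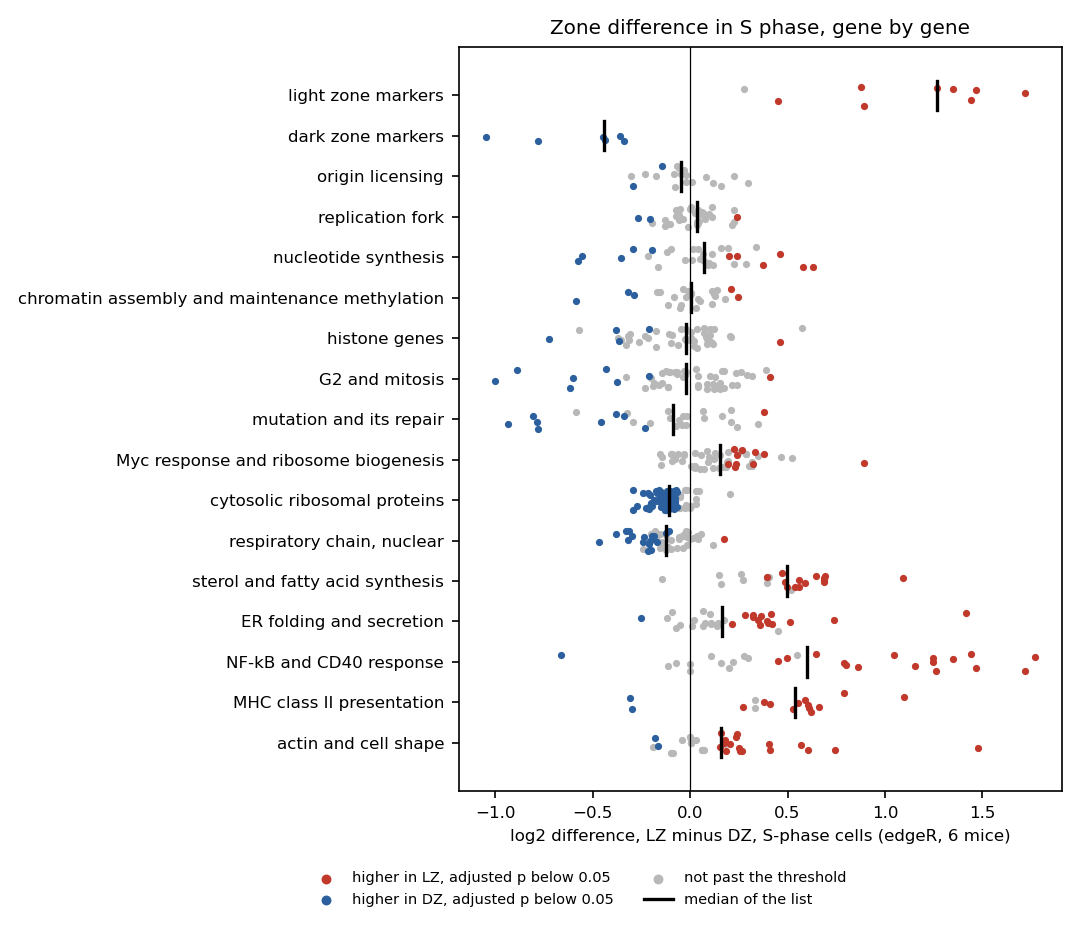
Each point is 1 gene's log2 difference (x axis, LZ minus DZ in S-phase cells, edgeR over 6 mice), grouped by gene list (rows). Red points were higher in LZ and blue points higher in DZ at an adjusted p below 0.05, grey points were not past it, and black bars mark the list medians: licensing, fork and histone genes sit around 0, while sterol, NF-kB and MHC class II genes lie mostly to the right.

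The largest differences in favour of LZ, among genes with at least 20 CPM and the same direction in all 6 mice, were those of Lyz2, Serpinb1a and Il4i1. Il4i1, a secreted amino acid oxidase induced by cytokine and CD40 signals, had 90.6, 151 and 175 CPM in LZ against 26.0, 38.4 and 49.4 CPM in DZ (log2 difference 2.06 ± 0.11, adjusted p = 3.8e-09). Serpinb1a, an inhibitor of leukocyte proteases, had 9.39, 16.9 and 50.2 CPM in LZ against 2.74, 3.99 and 9.33 CPM in DZ (log2 difference 2.26 ± 0.19, adjusted p = 3.6e-07). Neither gene's zones overlapped. Fcer2a, the low-affinity IgE receptor CD23, had 111, 161 and 280.2 CPM in LZ against 36.7, 66.4 and 90.6 CPM in DZ (log2 difference 1.47 ± 0.09, adjusted p = 1.7e-08), and its highest LZ values came from both day 10 mice. Also among the 12 largest were Hivep3, Snn, Ms4a6c, Hs3st1 and the actin-capping gene Capg, with log2 differences of 1.48 to 1.96.

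Lyz2, the lysozyme of myeloid cells, had the largest log2 difference of all, but it came from few cells. The gene had 0.754, 58.4 and 181 CPM in LZ against 0.666, 3.95 and 14.1 CPM in DZ (log2 difference 3.47 ± 0.24, adjusted p = 3.6e-08), and the zones overlapped. Of 735 UMIs in LZ, 668 (90.9%) lay in 10 of the 1008 cells and 257 in a single cell, against 54 UMIs in DZ with 8 in its highest cell. Lyz2 was seen in 3.17% of LZ and 3.87% of DZ cells, at median depths of 9993 and 11564 UMIs, and Cd3d, a T cell gene that B cells should lack, in 1.09% of LZ and 1.13% of DZ cells. The share of cells with a Lyz2 UMI therefore did not follow the sum.

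The largest differences in favour of DZ were taken by the same rule. Pafah1b3, a catalytic subunit of a platelet-activating factor acetylhydrolase, had 127, 133 and 158 CPM in LZ against 337, 361 and 487 CPM in DZ (log2 difference -1.50 ± 0.07, adjusted p = 1.6e-09). Rgcc, a regulator of the cell cycle kinase CDK1, had 44.6, 60.4 and 78.4 CPM in LZ against 143, 173 and 226 CPM in DZ (log2 difference -1.59 ± 0.09, adjusted p = 5.2e-09). In both, every LZ sum lay below every DZ sum. Emp2, a membrane protein of the epithelial membrane protein family, fell furthest, with 0, 3.65 and 15.3 CPM in LZ against 7.24, 28.5 and 60.7 CPM in DZ (log2 difference -2.24 ± 0.20, adjusted p = 8.5e-07), although its zones overlapped and its lowest LZ sum was at 0. Bcl2l11, which encodes the death-promoting protein BIM, had 5.79, 8.81 and 10.7 CPM in LZ against 16.6, 20.8 and 31.9 CPM in DZ (log2 difference -1.26 ± 0.18, adjusted p = 0.00011). Otub2, Arl5c, Myl4, Sepp1, Lmo4, Ackr4 (a scavenging receptor for chemokines), Akap12 and Pdzd2 completed the 12, with log2 differences of -1.77 to -1.26.

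**Figure D3:**
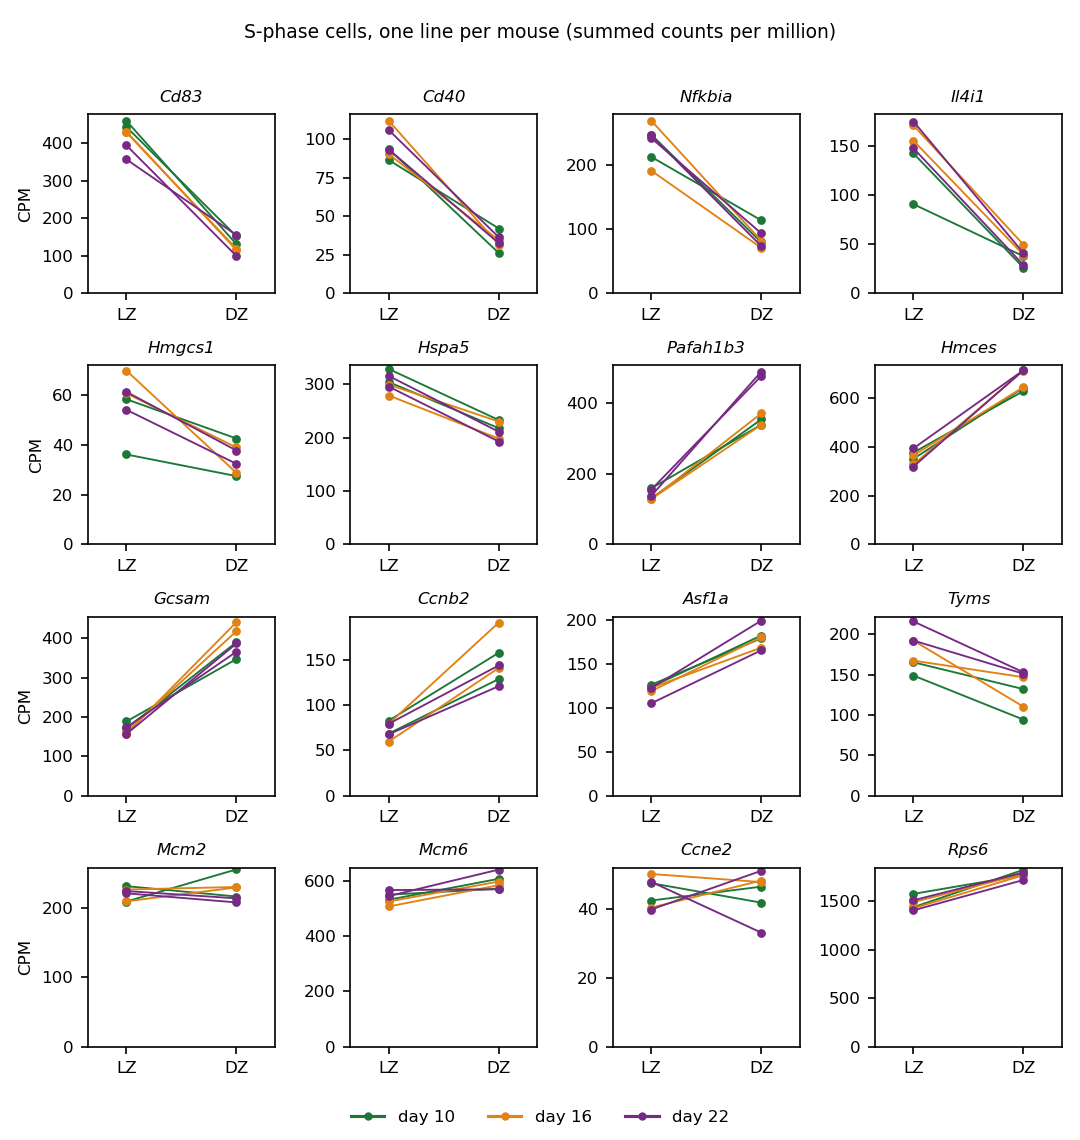
Level of 16 genes in S-phase cells (y axis, CPM of the summed counts, from 0) in LZ and DZ, 1 line per mouse, coloured by day. Lines fall from LZ to DZ for Cd83, Cd40, Nfkbia, Il4i1, Hmgcs1, Hspa5 and Tyms, climb for Pafah1b3, Hmces, Gcsam, Ccnb2, Asf1a, Mcm6 and Rps6, and cross or lie flat for Mcm2 and Ccne2.

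DNA replication starts when origins are licensed by loading the MCM2 to MCM7 helicase, a step that needs the origin recognition complex, CDC6 and CDT1, and that is made ready in G1. Here the licensing genes were near parity: of 19 tested, 0 were higher in LZ (7.57% of all genes were), 2 were higher in DZ (8.14% of all) and 17 passed in neither direction, with a median log2 difference of -0.05. The S call chose the cells of both zones and may have used such genes, here and in the fork and G1 to S lists below. The part of that choice in the parity was not tested. Mcm2 had 209, 222 and 231 CPM in LZ against 207, 222 and 255 CPM in DZ (log2 difference -0.02 ± 0.06, adjusted p = 0.89), higher in LZ in 3 of 6 mice. Mcm3, Mcm4, Mcm5 and Mcm7 had log2 differences of -0.07 ± 0.05, -0.03 ± 0.05, -0.08 ± 0.06 and -0.02 ± 0.05, none past the threshold. Mcm6 was the exception among the helicase genes, with 507, 538 and 566 CPM in LZ against 569, 589.9 and 639.8 CPM in DZ (log2 difference -0.15 ± 0.04, adjusted p = 0.027). Cdt1, the loading factor that is destroyed once S phase begins, had 75.9, 82.96 and 94.4 CPM in LZ against 90.6, 101.3 and 111 CPM in DZ (log2 difference -0.29 ± 0.07, adjusted p = 0.011). Both calls were fragile: Mcm6 did not pass without day 10 mouse 2, day 16 mouse 1, day 16 mouse 2 or day 22 mouse 2 (adjusted p 0.065 to 0.091), and Cdt1 did not pass without day 10 mouse 2 or day 22 mouse 2 (adjusted p 0.051 to 0.059). With day 10 mouse 2 left out, or day 22 mouse 2, 0 licensing genes passed.

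At the fork itself 1 of 36 genes (2.78%) was higher in LZ and 2 (5.56%) were higher in DZ, below the 7.57% and 8.14% of all genes, with a median of 0.04. Pcna had 289, 308 and 328 CPM in LZ against 289.7, 301 and 319 CPM in DZ (log2 difference 0.02 ± 0.05, adjusted p = 0.82), and the zones overlapped. Rfc2, a subunit of the clamp loader, had 424, 465 and 496 CPM in LZ against 346, 396 and 441 CPM in DZ (log2 difference 0.24 ± 0.05, adjusted p = 0.0058). Tipin, which holds the fork together with Timeless, had 292, 324 and 341 CPM in LZ against 361, 373 and 381 CPM in DZ (log2 difference -0.21 ± 0.05, adjusted p = 0.0085) and did not overlap. The third call was Rnaseh2c, a subunit of the RNA-DNA hybrid nuclease (log2 difference -0.27 ± 0.08), lost without day 10 mouse 2, day 16 mouse 1, day 22 mouse 1 or day 22 mouse 2 (adjusted p 0.058 to 0.11).

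The genes that turn cells from G1 to S were near parity too. Of 23 tested, 0 were higher in LZ (7.57% of all genes were) and 3 (13.0%) were higher in DZ (8.14% of all). Ccnd3, the cyclin D of dark zone cells and a listed dark zone marker, had 357, 380.1 and 411 CPM in LZ against 466, 490.1 and 519.6 CPM in DZ, a log2 difference of -0.36 ± 0.05. Ccne1 and Ccne2, the E cyclins that drive S-phase entry, had log2 differences of -0.00 ± 0.10 and -0.03 ± 0.12, with 2 and 3 of 6 mice higher in LZ. E2f2, a transcription factor for replication genes, had a log2 difference of -0.35 ± 0.10 (adjusted p = 0.030), lost without day 10 mouse 2, day 16 mouse 2, day 22 mouse 1 or day 22 mouse 2 (adjusted p 0.054 to 0.14). Tfdp2, a partner of the E2F factors, had -0.64 ± 0.16 (adjusted p = 0.011), lost without day 10 mouse 2 (adjusted p 0.050).

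Genes of nucleotide supply were called in both directions. Of 31 genes, 6 (19.4%) were higher in LZ and 5 (16.1%) were higher in DZ, against 7.57% and 8.14% of all genes. Tyms, which makes thymidylate from deoxyuridylate, had 149, 179.6 and 216 CPM in LZ against 94.1, 139 and 153 CPM in DZ (log2 difference 0.46 ± 0.08, adjusted p = 0.00040), and Tk1, which salvages thymidine, had 241, 259 and 299 CPM in LZ against 172, 200.3 and 254 CPM in DZ (log2 difference 0.38 ± 0.08, adjusted p = 0.0039). Dut, which clears dUTP, went the other way, with 701, 748 and 771 CPM in LZ against 829, 848 and 886 CPM in DZ (log2 difference -0.20 ± 0.04, adjusted p = 0.0010) and no overlap. Prps2, which makes the ribose phosphate for nucleotides, and Dck, which salvages deoxycytidine, were also higher in DZ, with log2 differences of -0.56 ± 0.09 and -0.30 ± 0.07. DESeq2's Wald test gave 3 higher in LZ and 4 higher in DZ. Rrm2, the regulated subunit of ribonucleotide reductase, did not pass (log2 difference 0.06 ± 0.06). The list's median was 0.07.

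New DNA is packed into chromatin by histones and their chaperones. Of 25 chaperone and maintenance genes 2 (8.0%) were higher in LZ and 3 (12.0%) were higher in DZ, near the 7.57% and 8.14% of all genes. Asf1a, a chaperone that hands over histones H3 and H4, had 105, 123 and 126 CPM in LZ against 166, 179.8 and 199 CPM in DZ (log2 difference -0.58 ± 0.06, adjusted p = 3.9e-06). The abundant chromatin proteins Hmgb2 and Hmgn2 had log2 differences of -0.29 ± 0.03 and -0.32 ± 0.03, lower in LZ and without overlap. Rbbp7, a histone-binding subunit of several complexes, had 468, 502 and 517 CPM in LZ against 372, 417 and 465 CPM in DZ (log2 difference 0.25 ± 0.05, adjusted p = 0.0013). Of 47 histone genes 1 (2.13%) was higher in LZ and 4 (8.51%) were higher in DZ, below and near the shares of all genes, with a median of -0.02. Those in favour of DZ were H1fx, a linker histone (-0.72 ± 0.10), Hist1h4i (-0.38 ± 0.09) and the replication-independent variants H2afv (-0.36 ± 0.04) and H2afz (-0.21 ± 0.03), each lower in LZ in 6 of 6 mice. The sums of H2afv and H2afz did not overlap. Replication-dependent histone messages lack poly(A) tails and are near-identical copies of each other, so a poly(A) assay counts them poorly and their single values are uncertain.

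Genes of the coming division were called in small numbers and without one direction as a group. Of 53 genes of G2 and mitosis, 1 was higher in LZ (7.57% of all genes were) and 7 were higher in DZ (8.14% of all), with a median of -0.02. Within the deposited cluster 2 alone the balance turned, with 9 higher in LZ, 5 higher in DZ and a median of 0.20, and with immunoglobulin genes left out of the fit 5 and 9 passed. Without day 16 mouse 1 there were 6 and 6. Ccnb2, a mitotic cyclin, had 59.7, 74.1 and 82.97 CPM in LZ against 121, 143 and 191 CPM in DZ (log2 difference -1.0 ± 0.08, adjusted p = 1.4e-07). Cdc25b, the phosphatase that starts the activation of CDK1, had 70.0, 85.3 and 96.4 CPM in LZ against 133, 161 and 171 CPM in DZ (log2 difference -0.89 ± 0.07, adjusted p = 9.0e-08). Every LZ sum lay below every DZ sum for both genes. Cenpa, the centromeric histone, Ube2c, an enzyme of mitotic protein destruction, and Cdc20, its activator, had log2 differences of -0.62 ± 0.08, -0.43 ± 0.07 and -0.60 ± 0.12. Kif23, a motor of cytokinesis named because it was the single member called in favour of LZ, had 0.41 ± 0.12. Mki67, Top2a and Ccnb1 were not called.

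The promoter of Ccnb2 is shown because it holds the cell cycle homology letters TTTGAA, in capitals, 2 times. It runs from 250 bases before to 50 after the gene's start, chr9:70421505-70421804 on the minus strand of GRCm38.p6 (RefSeq), upstream sequence and the first bases of the transcript.
Ccnb2: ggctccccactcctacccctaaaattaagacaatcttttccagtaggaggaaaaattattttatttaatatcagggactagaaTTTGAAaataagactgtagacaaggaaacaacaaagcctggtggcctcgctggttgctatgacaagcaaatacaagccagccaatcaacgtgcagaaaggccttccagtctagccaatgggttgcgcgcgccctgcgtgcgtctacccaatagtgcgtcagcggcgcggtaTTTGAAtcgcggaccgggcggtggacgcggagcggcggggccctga
The letters TTTGAA, on either strand, were found in 34 of the 45 promoters available for this list (75.6%), in 12.4% of the 5711 available for genes tested and in 18.1% of all 27025. Among genes called in favour of LZ they stood in 13.8%, and among those called in favour of DZ in 12.1%. Motifs were searched 1 at a time, so matches of different motifs may overlap, and a match is only a match of letters.

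Mutation of antibody genes in the germinal centre is shaped by DNA repair enzymes. Of 28 tested, 1 was higher in LZ (7.57% of all genes were) and 8 were higher in DZ (8.14%), with a median of -0.09. Hmces, a shield protein for abasic sites in single-stranded DNA, had 319.9, 359 and 395 CPM in LZ against 630.0, 679.8 and 715 CPM in DZ (log2 difference -0.93 ± 0.06, adjusted p = 7.1e-09). Neil1, a DNA glycosylase of base excision repair, had 209.7, 234 and 256 CPM in LZ against 361, 408 and 429 CPM in DZ (log2 difference -0.79 ± 0.05, adjusted p = 1.0e-08). Both lay wholly apart between the zones. Nuggc, a nuclear GTPase of germinal centre B cells, had a log2 difference of -0.46 ± 0.07, and Polh, the translesion polymerase that mutates A and T bases and a listed dark zone marker, had -0.78 ± 0.11. Apex1, an endonuclease for abasic sites, was the member in favour of LZ, with 103, 123 and 141 CPM in LZ against 86.2, 92.2 and 105 CPM in DZ (log2 difference 0.38 ± 0.08, adjusted p = 0.0026). Ung, which removes uracil from DNA, was not called (log2 difference 0.16 ± 0.07).

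For replication stress and homologous recombination, 3 of 37 genes were higher in LZ and 1 was higher in DZ, near or below the 7.57% and 8.14% of all genes. Without day 10 mouse 2, day 16 mouse 2 or day 22 mouse 1, 1 gene passed in each direction. Xrcc1, the scaffold of single-strand break repair, had 92.0, 102 and 111 CPM in LZ against 122, 146 and 159 CPM in DZ (log2 difference -0.50 ± 0.07, adjusted p = 7.6e-05). Chek2, a checkpoint kinase, had a log2 difference of 0.57 ± 0.15 (adjusted p = 0.016), lost without day 10 mouse 2, day 22 mouse 1 or day 22 mouse 2 (adjusted p 0.051 to 0.060).

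Genes of the helper T cell signal were mostly higher in LZ. NF-kB is a family of transcription factors that CD40 switches on, and it induces its own inhibitors. Of 28 genes of the NF-kB and CD40 response, 16 (57.1%) were higher in LZ and 1 (3.57%) was higher in DZ. Of all genes 7.57% and 8.14% were, and the median of the list was 0.60. Several are also listed light zone markers, so the list is not independent of the zone names. Nfkbia, the inhibitor IkBa and such a marker, had 192, 245 and 269.6 CPM in LZ against 71.1, 81.0 and 114 CPM in DZ, a log2 difference of 1.44 ± 0.09. Nfkb2, a subunit of the non-canonical pathway, had 32.8, 37.4 and 46.1 CPM in LZ against 11.3, 16.4 and 22.7 CPM in DZ (log2 difference 1.24 ± 0.14, adjusted p = 8.6e-06). Slamf1, a receptor for T cell contact, had 131, 151 and 164 CPM in LZ against 65.8, 80.7 and 109 CPM in DZ (log2 difference 0.86 ± 0.09, adjusted p = 2.9e-06). No DZ sum of these 3 reached an LZ sum. The near-identical survival genes Bcl2a1d and Bcl2a1b had log2 differences of 1.25 ± 0.13 and 1.15 ± 0.13, and reads may be split between such copies. Pim1, a survival kinase named as the single member in favour of DZ, had 110.5, 138 and 172 CPM in LZ against 184, 215 and 238 CPM in DZ (log2 difference -0.66 ± 0.07, adjusted p = 8.6e-06).

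The promoters of Nfkbia (chr12:55492598-55492897, minus strand) and Nfkb2 (chr19:46304487-46304786, plus strand; both GRCm38.p6, RefSeq) are shown because each holds the NF-kB consensus, in capitals, on either strand. They cover 250 bases before to 50 after the start.
Nfkbia: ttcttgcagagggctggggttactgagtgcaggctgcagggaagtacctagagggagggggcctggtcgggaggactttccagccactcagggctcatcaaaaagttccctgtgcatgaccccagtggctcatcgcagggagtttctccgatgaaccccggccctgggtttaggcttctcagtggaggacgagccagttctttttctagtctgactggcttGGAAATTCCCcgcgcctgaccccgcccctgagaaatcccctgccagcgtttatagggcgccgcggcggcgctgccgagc
Nfkb2: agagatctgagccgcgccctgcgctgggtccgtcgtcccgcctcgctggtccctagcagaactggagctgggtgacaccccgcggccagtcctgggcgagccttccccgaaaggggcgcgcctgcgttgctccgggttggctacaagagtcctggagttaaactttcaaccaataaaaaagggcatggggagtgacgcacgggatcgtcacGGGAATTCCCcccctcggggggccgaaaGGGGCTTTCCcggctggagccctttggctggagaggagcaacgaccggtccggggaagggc
The Nfkb2 window holds 2 such stretches, of which GGGAATTCCC reads the same on both strands, and the Nfkbia window holds 1. The consensus was found in 8 of the 23 promoters available for the list (34.8%), in 6.88% of those of genes tested and in 5.55% of all 27025. Among genes called in favour of LZ it stood in 9.84%, and among those called in favour of DZ in 8.21%.

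Antigen presentation to T cells went the same way. Of 16 genes of MHC class II presentation, 12 (75.0%) were higher in LZ and 2 (12.5%) were higher in DZ, with a median of 0.54. Of all genes 7.57% and 8.14% were. Cd74, the invariant chain that guides class II molecules, had 22242, 23257 and 24439.7 CPM in LZ against 13626, 16152 and 17496 CPM in DZ (log2 difference 0.55 ± 0.04, adjusted p = 3.0e-08). H2-Aa, the alpha chain of a class II molecule, had 4807, 5037 and 5281 CPM in LZ against 2819, 3411 and 3647 CPM in DZ (log2 difference 0.61 ± 0.04, adjusted p = 7.1e-08). Ifi30, a reductase that opens antigens for loading, had 829, 944 and 1160.0 CPM in LZ against 402, 439 and 534 CPM in DZ (log2 difference 1.10 ± 0.05, adjusted p = 2.7e-10). For each of the 3 the zones lay apart. Of 20 molecules that face T cells, 12 (60.0%) were higher in LZ and 2 (10.0%) were higher in DZ. Il2rg, the shared cytokine receptor chain that serves the IL-21 and IL-4 receptors, had 163, 201 and 222 CPM in LZ against 93.6, 118 and 143 CPM in DZ (log2 difference 0.77 ± 0.06, adjusted p = 3.6e-07), and Tnfrsf13c, the receptor for the survival factor BAFF, had a log2 difference of 0.58 ± 0.05. Slamf7 was higher in DZ (-0.38 ± 0.07).

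The genes of antigen receptor signalling moved in both directions. Of 34, 12 (35.3%) were higher in LZ and 5 (14.7%) were higher in DZ, against 7.57% and 8.14% of all genes. Ptpn6, the phosphatase SHP-1 that dampens the receptor, had 472, 530.3 and 607 CPM in LZ against 306, 365 and 395 CPM in DZ (log2 difference 0.60 ± 0.05, adjusted p = 2.6e-07). Cr2, the complement receptor of the B cell co-receptor, had 49.5, 63.8 and 83.9 CPM in LZ against 19.8, 27.3 and 33.6 CPM in DZ (log2 difference 1.24 ± 0.11, adjusted p = 4.6e-07). Cd79a was higher in LZ and its partner Cd79b, with the kinase Syk and the adaptor Blnk, was higher in DZ. Of 15 immediate early genes 6 (40.0%) were higher in LZ and 0 were higher in DZ. Junb, a subunit of the AP-1 factor, had 155, 188 and 207 CPM in LZ against 91.3, 97.9 and 126 CPM in DZ (log2 difference 0.87 ± 0.07, adjusted p = 3.1e-07), and Ier2 had a log2 difference of 1.15 ± 0.12. Myc, which selected cells switch on and which is a listed light zone marker, had 25.8, 43.0 and 55.5 CPM in LZ against 13.0, 19.2 and 33.3 CPM in DZ, a log2 difference of 0.89 ± 0.18, and it was higher in LZ in 5 of 6 mice.

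Factors of germinal centre identity were measured in both zones. Of 23, 9 (39.1%) were higher in LZ and 4 (17.4%) were higher in DZ, against 7.57% and 8.14% of all genes. Bcl6, the repressor that defines the state, had 50.5, 56.7 and 68.9 CPM in LZ against 42.0, 47.7 and 64.4 CPM in DZ and was not called (log2 difference 0.21 ± 0.10). Lmo2, a partner of transcription factors, had 37.2, 49.1 and 60.3 CPM in LZ against 13.3, 19.3 and 25.0 CPM in DZ (log2 difference 1.37 ± 0.12, adjusted p = 6.4e-07). Gcsam, a signalling adaptor of germinal centre B cells, had 157, 167 and 189 CPM in LZ against 348, 389 and 441 CPM in DZ (log2 difference -1.22 ± 0.07, adjusted p = 4.7e-09), and Foxp1 had a log2 difference of -0.94 ± 0.09. Both were lower in LZ in 6 of 6 mice without overlap.

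Genes of sterol synthesis were mostly higher in LZ cells in S phase. Of 23 genes of sterol and fatty acid synthesis 14 (60.9%) were higher in LZ and 0 were higher in DZ. Of all genes 7.57% and 8.14% were, and the median of the list was 0.50. Hmgcs1, which makes HMG-CoA, the precursor of mevalonate, had 36.2, 59.6 and 70.0 CPM in LZ against 27.5, 35.1 and 42.6 CPM in DZ (log2 difference 0.69 ± 0.11, adjusted p = 0.00039). Cyp51, which removes a methyl group from lanosterol, had 54.3, 82.3 and 92.7 CPM in LZ against 27.5, 51.1 and 63.0 CPM in DZ (log2 difference 0.69 ± 0.09, adjusted p = 5.8e-05). Insig1, a sterol sensor that holds the pathway's activator in the endoplasmic reticulum, had 26.7, 36.8 and 44.3 CPM in LZ against 5.79, 18.4 and 23.3 CPM in DZ (log2 difference 1.09 ± 0.16, adjusted p = 0.00014). The Insig1 sums lay apart, while those of Hmgcs1 and Cyp51 overlapped only through the low LZ value of day 10 mouse 1. DESeq2's Wald test called 6 of these genes, and 7 passed after thinning to equal UMIs, each in favour of LZ.

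The Hmgcs1 promoter, chr13:119690101-119690400 on the plus strand of GRCm38.p6 (RefSeq), 250 bases before to 50 after the start, is shown because it holds CCAAT 4 times on either strand (capitals).
Hmgcs1: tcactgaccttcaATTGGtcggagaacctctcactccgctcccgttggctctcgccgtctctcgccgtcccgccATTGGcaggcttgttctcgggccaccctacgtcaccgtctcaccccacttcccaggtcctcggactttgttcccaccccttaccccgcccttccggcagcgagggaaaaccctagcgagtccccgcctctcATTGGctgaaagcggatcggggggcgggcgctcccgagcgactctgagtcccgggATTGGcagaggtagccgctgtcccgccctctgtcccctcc
CCAAT stood in 13 of the 15 promoters available for the list (86.7%), in 40.3% of those of genes tested and in 37.9% of all 27025. It stood in 40.3% of the promoters of genes called in favour of LZ and in 36.7% of those in favour of DZ. In the list of G2 and mitosis, which did not favour LZ, it stood in 36 of 45 (80.0%). The sterol element TCACNCCAC stood in 1 of the 15 (6.67%), in 1.07% of those of genes tested and in 1.22% of all. The 1 is the Hmgcs1 promoter above, which holds the letters TCACCCCAC, there not in capitals. Among genes called the element stood in 2.11% in favour of LZ and 0.648% in favour of DZ.

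Of 32 genes of protein folding and secretion in the endoplasmic reticulum 14 (43.8%) were higher in LZ and 1 (3.1%) was higher in DZ. Of all genes 7.57% and 8.14% were. The other 17 of the list were not called, and its median was 0.16. DESeq2's Wald test and thinning to equal UMIs each gave 8 higher in LZ and 1 higher in DZ. Hspa5, the chaperone BiP, had 279, 302 and 329 CPM in LZ against 193, 215 and 233 CPM in DZ (log2 difference 0.51 ± 0.05, adjusted p = 3.3e-06), and Pdia6, a disulfide isomerase, had a log2 difference of 0.42 ± 0.06. Of 8 plasma cell genes tested, 1 (12.5%) was higher in LZ and 4 (50.0%) were higher in DZ. Jchain, the joining chain of secreted IgM and IgA, had 876, 1028 and 1049.5 CPM in LZ against 1497, 1647 and 1773 CPM in DZ (log2 difference -0.71 ± 0.04, adjusted p = 4.4e-09), and Mzb1, an antibody chaperone, had a log2 difference of -0.50 ± 0.03. Xbp1, the factor that drives the secretory programme, did not pass (-0.19 ± 0.08, adjusted p = 0.13).

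Growth genes split between making ribosomes and the ribosome's own proteins. Of 52 genes of the Myc response and ribosome biogenesis 10 (19.2%) were higher in LZ and 0 were higher in DZ (median 0.15). Of all genes 7.57% and 8.14% were. For this list DESeq2's Wald test called 5 and cluster 1 alone gave 2, all in favour of LZ. Ncl, the nucleolar protein nucleolin, had 677, 718 and 756 CPM in LZ against 556, 607 and 658 CPM in DZ (log2 difference 0.23 ± 0.04, adjusted p = 0.00027). Of 82 cytosolic ribosomal protein genes 0 were higher in LZ and 60 (73.2%) were higher in DZ, each by little, with a median of -0.11. Rps6, a protein of the small subunit, had 1403, 1461 and 1572 CPM in LZ against 1715, 1772 and 1819.9 CPM in DZ (log2 difference -0.27 ± 0.03, adjusted p = 5.6e-06) and did not overlap. These genes gave 25.3 ± 0.592% of the UMIs of LZ sums and 26.7 ± 0.854% of those of DZ sums, lower in LZ in 6 of 6 mice. Without the mouse as a block 28 ribosomal protein genes passed, and within the deposited cluster 1 alone 15 passed, all in favour of DZ. Many have near-identical pseudogene copies, so single genes are less certain than the group.

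Energy metabolism showed small shifts. Of 49 nuclear genes of the respiratory chain 1 (2.04%) was higher in LZ and 18 (36.7%) were higher in DZ (median -0.13). DESeq2's Wald test gave 0 and 12, and thinning 1 and 11. Sdhb, a subunit of succinate dehydrogenase, had 301, 314 and 341 CPM in LZ against 388, 400.2 and 403 CPM in DZ (log2 difference -0.33 ± 0.05, adjusted p = 9.8e-05). For the 13 genes of the mitochondrial genome, 3 (23.1%, against 8.14% of all genes) passed in favour of DZ, with log2 differences of -0.10 to -0.07. DESeq2's Wald test called 0 of the 13, and 0 passed when day 10 mouse 2, day 16 mouse 1, day 16 mouse 2 or day 22 mouse 2 was left out. Of 18 glycolysis genes 3 (16.7%) were higher in LZ and 2 (11.1%) were higher in DZ, against 7.57% and 8.14% of all genes. In those directions 2 and 1 passed without day 22 mouse 1, without day 22 mouse 2, without the block or after thinning. Ldha, lactate dehydrogenase, had 859.8, 902 and 982 CPM in LZ against 688, 755 and 855 CPM in DZ (log2 difference 0.25 ± 0.03, adjusted p = 7.3e-05), and Gapdh had a log2 difference of -0.16 ± 0.03, in favour of DZ.

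Markers of other cells were checked in the same sums. Of 8 T cell markers, Cd3e, Cd3g and Trbc2 were at 0 in both zones, while Lck, which germinal centre B cells can also express, held 1274 UMIs in LZ and 449 in DZ. The 8 together summed to 108 to 159 CPM in LZ and 44.3 to 93.5 CPM in DZ (for summed markers, CPM over all UMIs without TMM). The 9 myeloid markers summed to 10.4 to 222 CPM in LZ and 8.97 to 36.5 CPM in DZ, with Lyz2 holding 735 UMIs in LZ and 54 in DZ, Cd68 121 and 43, and Tyrobp 96 and 37. Csf1r held 10 UMIs in LZ and 1 in DZ. The 6 naive B cell markers summed to 123 to 313 CPM in LZ and 44.0 to 98.6 CPM in DZ. Of those, Fcer2a held 1943 and 468 UMIs, and Ighd held 73 and 38. The 2 erythroid markers measured summed to 11.1 to 52.6 CPM in LZ and 8.31 to 24.9 CPM in DZ. Cr2 and Pecam1, listed for follicular dendritic and stromal cells but also expressed by B cells, summed to 63.2 to 97.3 CPM in LZ and 34.7 to 42.9 CPM in DZ. The 3 NK cell markers were at 0 in LZ and summed to at most 9.84 CPM in DZ. Apart from the NK markers, the median of each sum was higher in LZ, and the part of such cells or RNA in the differences above was not tested. In sums over cells, more cells with a gene and more RNA per cell cannot be told apart.

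Whether the zone difference in S phase differed from that in G1 or G2M was tested as an interaction over all 36 sums of 2 zones, 3 phases and 6 mice. Against G1, 75 of 8048 genes (0.932%) differed, 8 (0.0994%) with a more positive LZ minus DZ difference in S and 67 (0.833%) with a more negative one. Of the 67, 56 were cytosolic ribosomal protein genes, out of 83 tested. The light zone, NF-kB, sterol and MHC class II lists had 0 members called between S and G1, a count near the share over all genes.

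Ribosomal protein genes changed sides between the phases. Their share of UMIs was 26.7 ± 0.450% in LZ and 26.3 ± 0.567% in DZ in G1, 25.3 ± 0.592% in LZ and 26.7 ± 0.854% in DZ in S, and 23.3 ± 0.724% in LZ and 24.4 ± 0.849% in DZ in G2M (SD, n = 6). In G1 the share was higher in LZ in 6 of 6 mice, and in S and in G2M it was lower in LZ in 6 of 6 mice. The LZ minus DZ difference in S was below that in G1 in 6 of 6 mice (mean difference -1.97 ± 0.623 percentage points, exact sign-change p = 0.03125, adjusted over 2 contrasts 0.0625). Against G2M it differed by -0.389 ± 0.570 points (exact p = 0.15625). Rpl10, a large-subunit protein, averaged 2391 ± 29.3 CPM in LZ against 2658 ± 99.3 CPM in DZ in S and 2624 ± 126 CPM in LZ against 2371 ± 90.8 CPM in DZ in G1 (difference of differences -0.30 ± 0.04 log2, adjusted p = 2.7e-05, more negative in S in 6 of 6 mice). The count of calls depended on the fit: without day 10 mouse 2, 24 genes differed in all and 18 of them were ribosomal protein genes, after thinning to equal UMIs 20 and 11, and without the mouse as a block 11 and 5.

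**Figure D4:**
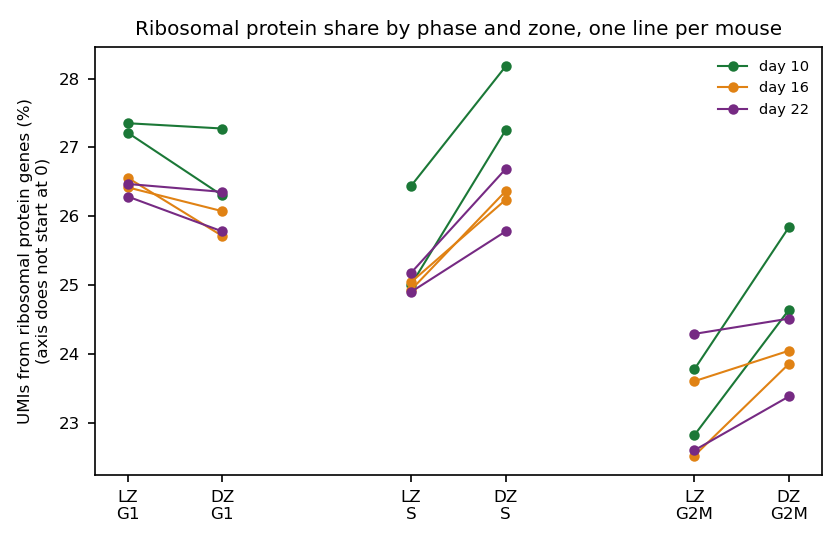
Share of UMIs from cytosolic ribosomal protein genes (y axis, percent, not starting at 0) in LZ and DZ sums of G1, S and G2M cells, 1 line per mouse, coloured by day. In G1 every line falls slightly from LZ to DZ, and in S and G2M every line climbs.

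Among the 8 genes with a more positive difference in S than in G1 were Hmgn2 and Stmn1. Hmgn2 averaged 1249 ± 67.8 CPM in LZ against 1561 ± 72.8 CPM in DZ in S and 653 ± 76.3 CPM in LZ against 1159 ± 154 CPM in DZ in G1 (difference of differences 0.50 ± 0.07, adjusted p = 9.9e-05). Stmn1, a tubulin-binding protein of dividing cells, averaged 1365 ± 84.8 CPM in LZ against 1489 ± 159.9 CPM in DZ in S and 275 ± 21.7 CPM in LZ against 414 ± 45.4 CPM in DZ in G1 (0.47 ± 0.10, adjusted p = 0.0098). Stmn1 was far more abundant in S than in G1, Hmgn2 was higher in S by less, and in both genes the zones lay closer in S on the log2 scale. The Stmn1 call was lost without day 10 mouse 2, day 22 mouse 1 or day 22 mouse 2 (adjusted p 0.063 to 0.10).

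Against G2M, 107 genes (1.33%) differed, 59 (0.733%) more positive in S and 48 (0.596%) more negative. Among the 59 were 6 genes of G2 and mitosis and among the 48 were 4 histone genes. Of the light zone list 1 of 11 members was called more negative in S, and of the NF-kB list, which shares genes with it, 2 of 29. Of the MHC class II list 1 of 17 was called more positive in S, and of the sterol list 0 of 25 were called. Cenpf, a kinetochore protein, averaged 54.9 ± 8.47 CPM in LZ against 50.4 ± 10.1 CPM in DZ in S and 348 ± 18.2 CPM in LZ against 545 ± 35.4 CPM in DZ in G2M (0.76 ± 0.15, adjusted p = 0.0060), lost without day 16 mouse 2 (adjusted p 0.065). Ccne2 averaged 44.7 ± 4.36 CPM in LZ against 44.8 ± 6.50 CPM in DZ in S and 19.3 ± 3.41 CPM in LZ against 9.03 ± 2.35 CPM in DZ in G2M (-1.08 ± 0.29, adjusted p = 0.050). Its mean in G2M was thus 2.13 times as high in LZ as in DZ, but the call stood at the threshold and was lost without day 10 mouse 1, day 10 mouse 2, day 16 mouse 1, day 16 mouse 2 or day 22 mouse 1 (adjusted p 0.083 to 0.26). Srm, a spermidine synthase gene induced by Myc, averaged 77.4 ± 16.7 CPM in LZ against 64.7 ± 13.6 CPM in DZ in S and 52.1 ± 7.07 CPM in LZ against 18.2 ± 5.55 CPM in DZ in G2M (-1.17 ± 0.24, adjusted p = 0.010), lost without day 22 mouse 2 (adjusted p 0.085). The count fell to 29 without day 22 mouse 1, 34 without day 22 mouse 2, 37 without day 16 mouse 2, 41 without day 10 mouse 2 and 54 without day 16 mouse 1, and was 202 with immunoglobulin genes left out.

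**Figure D5:**
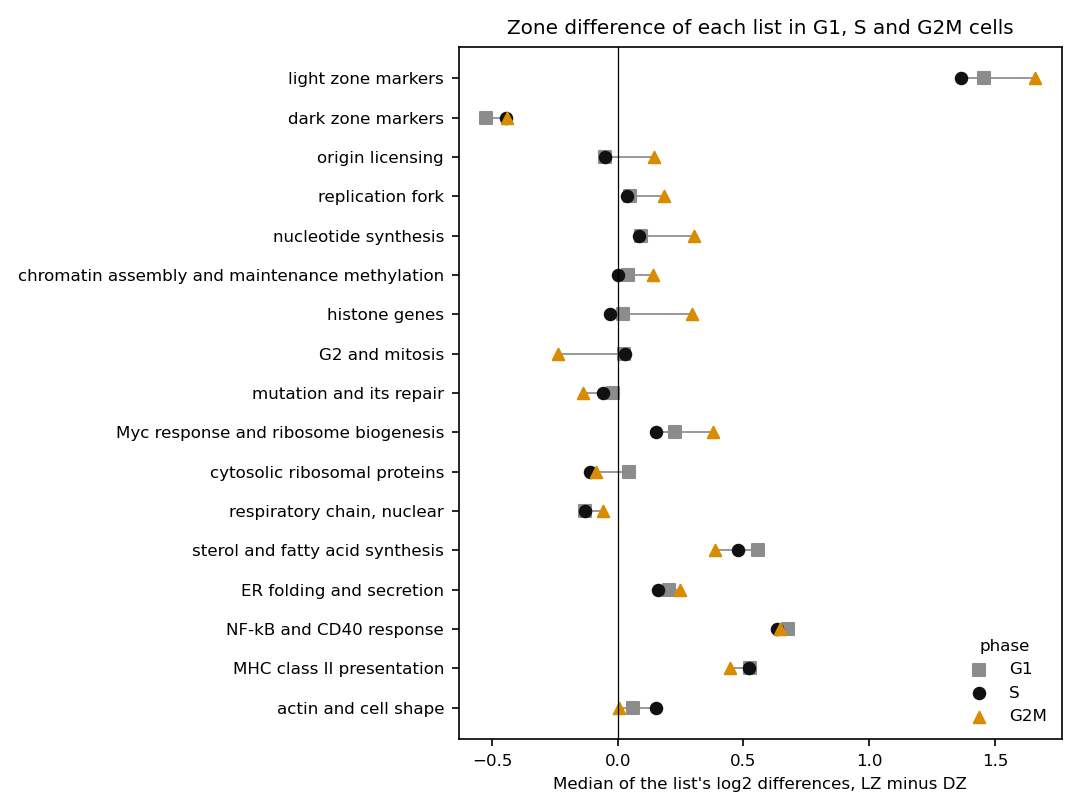
Median log2 difference of each gene list (x axis, LZ minus DZ) in G1 (grey squares), S (black circles) and G2M cells (orange triangles). NF-kB, MHC class II and sterol lists sit to the right in all 3 phases, the ribosomal protein median is 0.05 in G1, -0.11 in S and -0.08 in G2M, and histone, licensing and nucleotide medians lie near 0 in G1 and S and to the right in G2M.

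In the test of zone by day, 15 of 7461 genes (0.201%) passed, and all 15 were immunoglobulin variable genes. Between day 22 and day 10 alone 12 genes (0.161%) passed, again all immunoglobulin. At an unadjusted p below 0.05 there were 286 genes. Without the filter on low counts 109 genes passed across days and 70 between day 22 and day 10. With 2 mice a day, a difference between days had to be large against the spread to pass.

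Other deposited readouts of the same cells gave small differences. The memory score was 0.541 ± 0.0211 in LZ and 0.499 ± 0.0184 in DZ, higher in LZ in 6 of 6 mice (exact p = 0.03125, adjusted over 3 scores 0.09375). The plasma cell score was 0.137 ± 0.00679 in LZ and 0.138 ± 0.00834 in DZ (exact p = 0.65625). The third score, deposited under the name ACT, was 0.383 ± 0.00697 in LZ and 0.389 ± 0.0106 in DZ, higher in DZ in 5 of 6 mice (exact p = 0.25). Of 1054 cells with a clear heavy chain constant gene, Ighm made up 50.3 ± 17.5% in LZ and 51.6 ± 11.6% in DZ, Ighg1 38.3 ± 12.1% in LZ and 31.3 ± 7.11% in DZ, and Ighg2b 8.90 ± 7.06% in LZ and 14.1 ± 5.08% in DZ, none past the threshold. The deposited cluster 2 held 56.5 ± 2.01% of LZ and 57.6 ± 2.70% of DZ cells cluster 1 held 26.9 ± 4.09% and 29.0 ± 7.25%, and cluster 0 held 14.02 ± 3.36% and 10.8 ± 5.74%. Cluster 3 held 0 LZ and 8 DZ cells, cluster 4 held 4 LZ and 0 DZ cells, and cluster 5 held 23 LZ and 9 DZ cells. Immunoglobulin genes gave 1.26 ± 0.119% of UMIs in LZ and 1.47 ± 0.0606% in DZ, lower in LZ in 6 of 6 mice.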

How the data were processed

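The deposited table held the authors' raw UMI counts per gene and cell. The submitters' processing notes name Cell Ranger and Seurat and the builds mm10 and GRCm38, while versions, settings and the treatment of doublets are not given in the sources used here. Zone, phase, cluster, mouse and scores were taken from the deposited cell table, and the score values were computed by the authors, with genes not given in the sources used here. Doublets were not assessed. The 21 samples were 16 gene expression libraries (8 per well), 3 receptor libraries and 2 hashtag libraries.

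Counts of S-phase cells in the non-PC well were summed per mouse and zone (12 sums, at least 10 cells each) and tested with edgeR 4.0.16 (TMM, filterByExpr, quasi-likelihood F test, mouse as a block, Benjamini-Hochberg over all genes tested, threshold 0.05) in R 4.3.3. The pairing came from the design, since each mouse gave both zones. Phase and day contrasts used the same test, over 36 sums for phase. Fold changes are log2 LZ minus DZ. Shares and scores were compared with exact 2-sided sign-change permutation tests over mice. CPM of single genes used the counts of the genes tested in the fit, with the TMM factors. CPM of the summed markers of other cells used all UMIs of a sum. The fits were tested on simulated data. Alternatives were limma 3.58.1, DESeq2 1.42.0, filters, thinning and leaving out each mouse.

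Genes named were the 12 largest called differences in each direction with at least 20 CPM in the higher zone and the same direction in 6 mice, up to 6 members of each list with the lowest p, and members that define a list. In the phase and day contrasts they were the 8 largest called in each direction with at least 20 CPM in the highest group. Immunoglobulin, mitochondrial and predicted genes were left out of both rankings. Kif23, Pim1, Pcna, Rrm2, Bcl6 and Ung were chosen after their values were seen. The members, lists and tests were chosen with earlier results of these data known. Promoters came from RefSeq for GRCm38.p6, with 5711 of the 7461 genes tested matched by symbol. Some genes are not reported here.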

Additional observations from a re-analysis of the deposited data

Results flagged for a closer look

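The zone difference itself differed between phases for some genes: 75 genes between S and G1, 107 genes between S and G2M, and 15 genes across days by edgeR's quasi-likelihood test of the interaction, the last all immunoglobulin variable genes. Of 248 groups of 6 mice checked, 15 held a mouse far from the other 5, a share near the 1 in 20 that chance gives. Most of these were single genes, and 2 of them came from the interferon list. The ribosomal protein share of LZ cells in S is among the 15 under 2 names.

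Day 10 mouse 2 stood above the others in DZ for Isg15 (35.3 CPM, the others 3.12 to 10.1) and Ifi27l2a (980.3 CPM, the others 236 to 379), and below them for Sdhb (388 CPM, the others 398 to 403). Day 10 mouse 1 was high in LZ for the ribosomal protein share of UMIs (26.4%, the others 24.9 to 25.2%) and low for Cyp51 (54.3 CPM, the others 80.2 to 92.7). Day 16 mouse 1 was high for Capg in both zones (41.0 CPM in LZ, the others 20.0 to 27.8, and 16.5 CPM in DZ, the others 8.32 to 10.1) and for Cxcr4 in LZ (20.5 CPM, the others 11.7 to 14.3). Day 16 mouse 2 was high in LZ for Dck (232 CPM, the others 184 to 199) and low for Ung (102 CPM, the others 130.3 to 136). Day 22 mouse 2 was low in LZ for Asf1a (105 CPM, the others 119 to 126) and high in DZ for Kif23 (56.0 CPM, the others 34.8 to 41.1), Junb (126 CPM, the others 91.3 to 99.7) and Ighg1 cells (45.1%, the others 25.9 to 31.2%).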

How the results depend on the processing

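No called difference of a named gene changed direction under the alternatives run. Among values with no call, the Ighm share difference of -1.34 percentage points was 1.65 without day 16 mouse 1 and 0.738 without day 16 mouse 2. List medians near 0 changed sign too, among them G2 and mitosis (-0.02, and 0.20 in cluster 2), glycolysis (0.08, and -0.12 in cluster 1) and interferon (0.17, and -0.20 in cluster 1). Beside 1172 genes called, DESeq2's Wald test called 590, thinning every cell to the same UMIs 689 (624 of them among the 1172), and cluster 1 alone 336 (321 of them among the 1172; clusters were chosen after seeing the data). Leaving out 1 mouse gave 868 to 1108, and the fit without the replicate block 961. Between S and G1, where 75 genes were called, thinning gave 20, no replicate block 11, and leaving out 1 mouse 24 to 82, with 24 without day 10 mouse 2. Between S and G2M, where 107 were called, thinning gave 52, leaving out immunoglobulin genes 202, no replicate block 34, and leaving out 1 mouse 29 to 142. Without the filter on low counts 109 genes differed across days and 70 between day 22 and day 10. The S share difference was 5.93 to 7.12 percentage points with 1 mouse left out, at p = 0.0625, the smallest exact p that 5 mice can give. The cause of these changes was not tested. Of 237 named genes, 29 calls were lost with DESeq2's Wald test and 12 without the block, and 59 of the 204 testable were lost in cluster 1 alone. An alternative that ranks cells by a deposited S-phase score was not run. Sums of 58 DZ cells at the fewest limit what low genes can show.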

Other observations

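Genes of actin and cell shape were higher in LZ for 17 of 33 tested and higher in DZ for 2, against 7.57% and 8.14% of all genes. Lcp1, the actin-bundling protein plastin of leukocytes, had 921, 1012 and 1098 CPM in LZ against 672, 749 and 839 CPM in DZ (log2 difference 0.40 ± 0.04, adjusted p = 3.3e-06), and Actb, beta-actin, had a log2 difference of 0.27 ± 0.02. Both had zones that did not overlap. Of 24 genes of positioning and adhesion 6 (25.0%) were higher in LZ and 3 (12.5%) were higher in DZ, while DESeq2's Wald test and thinning each gave 2 and 2. Cxcr5, the receptor for the follicular chemokine CXCL13, had 60.3, 70.3 and 76.2 CPM in LZ against 37.0, 42.7 and 52.3 CPM in DZ (log2 difference 0.63 ± 0.10, adjusted p = 0.00035), and S1pr3, a receptor for sphingosine phosphate, had a log2 difference of 1.40 ± 0.25. Gna13, the G protein that holds germinal centre B cells in place, had 82.8, 89.9 and 107 CPM in LZ against 112, 123 and 133 CPM in DZ (log2 difference -0.42 ± 0.07, adjusted p = 0.00027).

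Of 41 proteasome genes 4 were higher in LZ and 6 were higher in DZ, near the 7.57% and 8.14% of all genes, and 4 and 2 passed after thinning to equal UMIs. The 4 higher in LZ were Psme1, Psme2, Psmb9 and Psmb10, subunits of the immunoproteasome and its activator. Psmb8, another immunoproteasome subunit, was not called. Psme1 had 568, 632 and 669 CPM in LZ against 444, 479 and 569.8 CPM in DZ (log2 difference 0.35 ± 0.05, adjusted p = 7.9e-05) and Psmb10 had a log2 difference of 0.41 ± 0.06. Psmd4, a ubiquitin receptor of the regulatory particle, had 194, 224 and 261 CPM in LZ against 270.1, 309 and 355 CPM in DZ (log2 difference -0.45 ± 0.06, adjusted p = 7.7e-05) and did not overlap. Of 11 interferon response genes 1 was higher in LZ and 1 was higher in DZ (9.09% each, near the 7.57% and 8.14% of all genes). The gene higher in DZ was Ifi27l2a (-0.43 ± 0.12), whose call was lost without day 10 mouse 2, day 16 mouse 2 or day 22 mouse 2 (adjusted p 0.060 to 0.075). Of 27 listed memory and quiescence genes only 6 were tested, with 0 higher in LZ and 2 higher in DZ (7.57% and 8.14% of all genes). Without the filter on low counts 25 were tested, with 5 higher in LZ, 2 higher in DZ and a median of 0.15.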
